A study of Acrobeloides nanus with 194 samples.

Results

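EMS is the blastomere of the 3-cell nematode embryo that founds the gut and much of the mesoderm. The rows examined here are the 100 of 16853 in the count table of Acrobeloides nanus whose level leaned most toward EMS at that stage. They were taken from 1396 rows whose level, as log2(CPM + 50), moved within a set window through embryogenesis. CPM is the count scaled by the library total. For such a row the highest mean of 4 stage bins exceeded the lowest by 0.5 to under 1, which can be a larger fold in CPM for a row of low level. The value that ranked the rows, D, is the mean level in EMS minus the higher of the means in AB and P2. It was above 0 in 411 of the 1396 rows, and the 100 of largest D were kept. The rows were thus chosen by their measured levels in the 3-cell libraries of EMS, P2 and AB, and the differences among these libraries are given as a description. Rows carry no gene name in the files, so they are given by number and no function is assigned to any of them.

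A. nanus is a free-living, parthenogenetic nematode. Its zygote, P0, divides into AB and P1, and P1 divides into EMS and P2. EMS gives MS, which forms mesoderm and part of the pharynx, and E, which forms the gut. P2 gives C and the germline cell P3, which in turn gives D and P4. In Caenorhabditis elegans the maternal transcription factor SKN-1 specifies EMS, and a Wnt signal from P2 polarises it so that only 1 daughter becomes E. A. nanus has been studied because its early cells are more regulative, with lost blastomeres replaced by neighbours, and because its germline cells divide early relative to AB and EMS.

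Embryos without treatment or mutation were dissociated by hand, and RNA of single blastomeres or small cell clusters was sequenced by CEL-Seq2, which tags the 3' end of transcripts. Groups are given by the stage and cell in the sample titles, and libraries with under 10000 counts were left out, which removed 44 and kept 150. At the 3-cell stage this left 4 libraries of EMS (replicates 1, 6, 7 and 8), 5 of P2 and 7 of AB, and at the 2-cell stage 7 each of P1 and AB. From the 4-cell to the 16-cell stage there were 8 libraries of the EMS line (4 EMS, 3 MS, 1 E), 20 of the P2 line and 10 of AB, and at stages E2 to E8 there were 7 of E and 8 of AB. Titles still name an undivided EMS at the 4-, 5- and 6-cell stages. The P2 line holds libraries titled P3, P4, p4, C and D and mixtures of these, and the cell names rest on the titles, since no marker gene could be looked up. Cells of 1 embryo can stand in several groups, and p-values measure the spread between libraries.

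Library totals ran from 973 to 1217040 counts with a median of 28629.5, and 39.5% of values in the 150 libraries were 0. At 10000 counts a single count is worth 100 CPM. On the first principal component of the 150 libraries (24.3% of the variance), signed so that deeper libraries score higher, 78 had a score below 0, here termed low-score libraries. They were 2 of 4 EMS, 1 of 5 P2 and 3 of 7 AB libraries at the 3-cell stage.

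The 100 rows were of moderate abundance and their lean was spread over many small differences. Averaged over all 150 libraries they stood at 26.3 to 3868 CPM with a median of 186.4 CPM, against a median of 72.1 CPM for the 1396 rows and 27.4 CPM for all rows. D was 1.93 and 1.86 for the first-ranked pair, 0.65 at the median and 0.46 for row 6811, ranked 100. Row 14457, the first left out, had a D of 0.45, so the list ends at no gap. With a pseudocount of 10 in place of 50 the same rule kept 6 of these 100 rows, and without low-score libraries 28. AB was the higher of the other cells for 52 rows and P2 for 48. Of the 100 rows 65 had their highest bin mean at the late stages VE, Comma and LE, 19 at 1 to 4 cells, 13 at E2 to E8 and 3 at 5 to 16 cells. The lowest bin was 5 to 16 cells for 40 rows and 1 to 4 cells for 37. Such counts were not made for the 1396 rows, whose mean level was highest at 1 to 4 cells (7.11, against 6.96 at the late stages).

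In the libraries that chose them, the rows together held 5.13% ± 1.77 of counts in EMS (SD, n = 4), 1.70% ± 0.51 in P2 (SD, n = 5) and 2.07% ± 0.89 in AB (SD, n = 7). The 4 EMS libraries had shares of 4.04%, 3.35%, 7.22% and 5.93% in replicates 1, 6, 7 and 8, and AB replicate 4, with 3.40%, lay above the lowest of them. The mean level of the rows did not overlap, with 8.05 to 8.14 in EMS, 7.02 to 7.504 in P2 and 7.06 to 7.56 in AB. Its group means were 8.08 ± 0.04 in EMS, 7.19 ± 0.19 in P2 and 7.21 ± 0.17 in AB (SD). With every library thinned to 10000 counts it ran from 7.74 to 7.94 in EMS, from 6.83 to 7.40 in P2 and from 6.84 to 7.39 in AB.

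Few single rows separated EMS from the other cells library by library. All 4 EMS libraries exceeded both other group means in 37 rows, 3 of them did so in 38 rows, 2 in 18 and 1 in 7. Every EMS library stood above every P2 and AB library in 2 of the 100 rows, where 0.143% of the 1396 rows and 0.19% of all rows did so. The same libraries chose the 100 rows, so an excess over those shares was built in. The 2 rows were 5497 and 4368, named here after their values were seen. Row 5497 averaged 159.2 CPM in EMS, 29.3 CPM in P2 and 27.3 CPM in AB, and row 4368 averaged 274 CPM in EMS, 103.3 CPM in P2 and 111.4 CPM in AB. In 50 rows exactly 1 EMS library stood above every P2 and AB library, and in 18 rows none did. These counts, and those against the group means, were not made for the 1396 rows or for all rows. They describe the 100 rows and cannot be read as an excess. The highest EMS library was replicate 1 for 17 rows, 6 for 28, 7 for 26 and 8 for 29. Leaving out 1 EMS library brought D to 0 or below in 20 rows and below 50% of its value in 47.

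**Figure D1:**
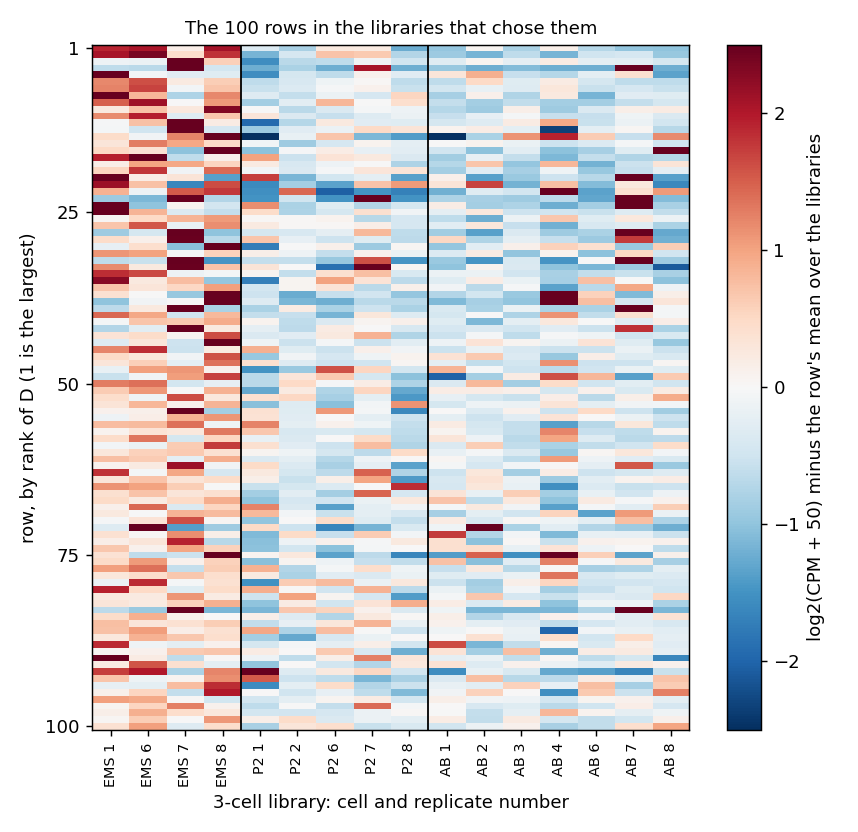
Levels of the 100 rows (vertical axis, by rank of D) in the 16 libraries of the 3-cell stage (horizontal axis, EMS, then P2, then AB), coloured by log2(CPM + 50) minus the mean of the row over those libraries. The 4 EMS columns are the reddest because these libraries chose the rows, and many rows have a single dark EMS library.

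Rows 16501 and 560, first in rank, were high in 3 EMS libraries and lower in the same one, replicate 7. Row 16501 stood at 388, 434, 80.9 and 446 CPM in EMS replicates 1, 6, 7 and 8. It stood at 42.1, 16.6, 88.3, 88.02 and 0 CPM in P2 replicates 1, 2, 6, 7 and 8, and between 8.18 and 79.3 CPM in the 7 AB libraries with a median of 17.5. Row 560 stood at 417, 531, 101.2 and 343 CPM in those EMS replicates, at 0, 33.2, 132.5, 127.1 and 17.5 CPM in the P2 replicates, and between 0 and 33.4 CPM in AB with a median of 9.77. For both rows EMS replicates 1, 6 and 8 were above every P2 and AB library, and replicate 7 was above every AB library but below 2 P2 libraries. Neither row was confined to EMS. At the 2-cell stage row 16501 had a median of 34.4 CPM in P1 and 217 CPM in AB, and row 560 one of 53.6 CPM in P1 and 185.9 CPM in AB (n = 7 each). Outside the 3-cell stage the levels of these rows moved together, with a Pearson r of 0.66 over all other libraries kept, which differ in depth and stage. The median r over all pairs among the 100 rows was 0.07 and over pairs of the 1396 rows 0.08, so as a whole the 100 rows moved together no more than those they were taken from.

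How far the lean held in libraries that took no part in choosing rows was examined by leaving out all 3-cell libraries of 1 replicate number, choosing 100 rows anew and reading them in the libraries left out. Of these rows 68 to 76 were shared with the 100. EMS was above AB by 0.53, 0.27, 0.04 and 0.29 on the log2(CPM + 50) scale for numbers 1, 6, 7 and 8, where the mean of the 1396 rows differed by -0.01, -0.27, -0.03 and 0.00. EMS minus P2 was 0.35, 0.35, -0.10 and 0.19, where the 1396 rows gave 0.68, -0.29, -0.08 and -0.43. For number 7 EMS was thus not above P2 in mean level, and for number 1 EMS was above P2 by less than the 1396 rows were. EMS was above both other cells in 46, 55, 27 and 43 of 100 rows, against 33.7%, 28.1%, 26.5% and 24.5% of the 1396 rows. By their share of all counts the order differed. The share was 2.24%, 2.03%, 2.78% and 2.41% in EMS, 3.54%, 1.67%, 2.47% and 2.29% in P2, and 1.12%, 2.13%, 1.97% and 1.31% in AB, so that EMS had the highest share for numbers 7 and 8. The smaller of the 2 differences in mean level was at most 0.35, where the smallest D of the 100 rows was 0.46, and with 1 library of each cell per number there is no test. A further library each of 3-cell EMS and P2 was under 10000 counts and took no part in the choice. EMS replicate 4 held 4.06% of its 9296 counts in the 100 rows (exact 95% binomial interval 3.66% to 4.48%), and P2 replicate 4 held 1.94% of 9664 (1.67% to 2.23%). These intervals cover counting error only. The mean level of the rows was 7.65 in this EMS library and 7.12 in this P2 library. Thinned to 10000 counts, the 4 EMS libraries that chose the rows ran from 7.74 to 7.94. AB replicate 4, which took part in the choice, held 3.40%.

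**Figure D2:**
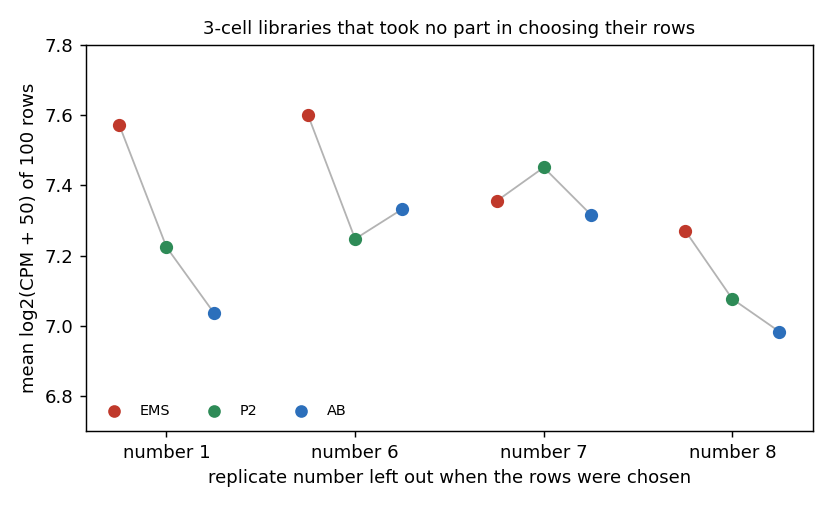
Mean log2(CPM + 50) of 100 rows (vertical axis) in the EMS, P2 and AB library of each replicate number left out when those rows were chosen (horizontal axis). EMS is highest for numbers 1, 6 and 8, and for number 7 it lies 0.10 below P2 and 0.04 above AB.

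In the 2-cell embryo, whose libraries were not used for D, the rows averaged lower in P1, the mother of EMS, than in AB, by less than the spread between libraries. P1 libraries had a mean level of 7.48 ± 0.33 and AB libraries one of 7.66 ± 0.36 (SD, n = 7 each), with libraries from 7.09 to 7.97 in P1 and from 7.15 to 8.01 in AB. In edgeR's quasi-likelihood test 54 of the 100 rows passed the filter on low counts, and 0 had a Benjamini-Hochberg adjusted p under 0.05. Over all 1536 rows tested 0% were called in either direction, 6.12% were at an unadjusted p under 0.05 and DESeq2 called 1, lower in P1. Of the 54 rows, 8 were at an unadjusted p under 0.05, 7 of them lower in P1 and 1 higher. That split depended on the scaling, with 3 higher and 6 lower under RLE size factors and 3 higher and 2 lower by DESeq2. The log2 fold change was positive in 12 of the 54, and its median was -0.40, where that of all rows tested was 0.06. Without the filter, on the log2(CPM + 50) scale, the difference was positive in 28 of the 100 rows, in 64.8% of all rows and in 72.3% of the 1396. Of the P1 libraries 2 were low-score ones, and of the AB libraries 4.

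The rows nearest the threshold at the 2-cell stage turned on few libraries. Row 5691 ranged from 55.01 to 333 CPM in P1 with a median of 90.8 and from 40.4 to 7287 CPM in AB with a median of 110.7, and row 11321 ranged from 82.5 to 568 CPM in P1 with a median of 256 and from 217 to 9871 CPM in AB with a median of 432. The highest value of both was AB replicate 4, and the groups otherwise overlapped (log2 fold changes -3.46 ± 1.12 and -2.83 ± 0.93, SE, edgeR adjusted p = 0.659 for both). Without AB replicate 4 they were 0.14 for row 5691 and -0.42 for row 11321. Toward P1, row 2635 ranged from 60.5 to 2091 CPM in P1 with a median of 177.5 and from 0 to 441 CPM in AB with a median of 157.4. Row 1925 ranged from 31.1 to 757 CPM in P1 with a median of 196 and from 44.3 to 169.1 CPM in AB with a median of 112.4. Neither was called (edgeR adjusted p = 0.783 and 0.798), and P1 was above every AB library in 3 and 4 of 7 libraries.

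After the 3-cell stage the mean level of the rows was higher in each library of undivided EMS than in AB of the same stage. The highest P2-line library of each stage came near it, and at the 5-cell stage lay above the lower EMS library. The mean level was 7.74 in the EMS library of the 4-cell stage, 7.48 and 7.52 in those of the 5-cell stage and 7.83 in that of the 6-cell stage. In AB it was 7.31 ± 0.06 at the 4-cell stage (SD, n = 3), and a single library each gave 7.43 with 5 cells and 7.08 with 6 cells. The highest P2-line library stood at 7.72 (P3) with 4 cells, 7.485 (P4) with 5 cells and 7.77 (P4D) with 6 cells. All 4 of these EMS libraries were low-score ones. The single EMS library stood above every other named library of its stage in 17 rows at the 4-cell stage, where 5.01% of all rows did, and in 28 rows at the 6-cell stage, where 20.1% did. At the 5-cell stage both EMS libraries did so in 11 rows, against 3.93% of all rows. The median difference between EMS and AB over the 100 rows was 0.40, 0.18 and 0.63 at the 4-, 5- and 6-cell stages on the log2(CPM + 50) scale, where all rows had 0, -0.17 and 0. For MS and E against AB at the 13-cell stage it was -0.00 with 48 of 100 rows positive (all rows -0.17, 27.8% positive), and for MS against AB at the 16-cell stage it was 0.08 (all rows 0). No test was made by stage, since most of these groups hold a single library.

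**Figure D3:**
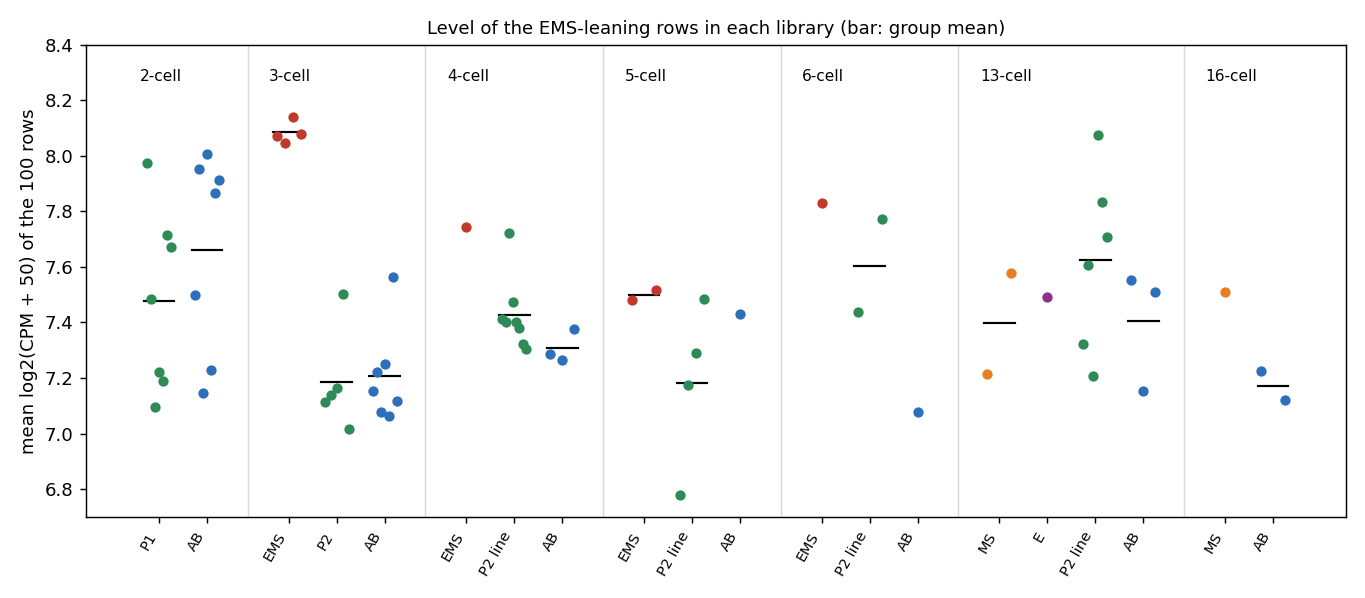
Mean log2(CPM + 50) of the 100 rows (vertical axis) in each library of the 2- to 16-cell stages, by stage and cell (horizontal axis), with a bar at the mean of groups of 2 or more libraries. The 3-cell libraries chose the rows. At the 4- to 6-cell stages each EMS library lies above every AB library of its stage, and the highest library after the 3-cell stage is that of D4 at 13 cells.

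With the stages pooled and stage as a term in the fit, no row passed the threshold for the EMS line against AB. Of the 100 rows 32 passed the filter and 0 were called, as were 0% of 497 rows tested in either direction. On simulated counts edgeR missed most of the changed rows in this comparison, so the lack of calls does not show that rows were alike. At an unadjusted p under 0.05 there were 11 of the 32, each higher in the EMS line, against 14.1% of all rows tested in either direction. The log2 fold change was positive in 23 of 32 rows, and its median of 0.83 lay 0.99 above that of all rows tested (-0.16). Under RLE size factors the median of the 32 rows was 0.25 and that of all rows -0.62, a difference of 0.87, and 6 rows were higher and 3 lower at an unadjusted p under 0.05. DESeq2 gave 6 higher and 4 lower. Without the filter 62 of the 100 rows were positive on the log2(CPM + 50) scale, against 36.1% of all rows. DESeq2 called 7 rows higher and 14 lower in the EMS line, of which 1 in each direction was among the 100 (over all rows 1.41% were called higher and 2.82% lower). Low-score libraries were 6 of 8 in the EMS line, among them all 4 of EMS, and 1 of 10 in AB. Across the libraries outside the 3-cell stage, 65% of the 100 rows had a negative correlation with the first-component score, against 22.7% of the 1396 rows. The correlations were weak, with a median r of -0.10 for the 100 rows and 0.29 for the 1396. Whether the score bears on the lean was not tested. Without low-score libraries (2 libraries of the EMS line and 9 of AB) the median of the rows lay 0.28 above that of all rows tested, with 41 of 71 positive and 1 called higher, where 0.834% of all rows were. Without the filter 2 of 100 were called higher (0.22% of all rows), and without MS of the 16-cell stage 3 of 35 (2.23%).

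Row 8157, closest to the threshold, was above nearly all AB libraries in the EMS line. It stood at 134.5 CPM in EMS of the 4-cell stage, at 203 and 542 CPM in the 5-cell libraries and at 350 CPM in that of 6 cells. In MS it stood at 238 and 457 CPM at 13 cells and at 163.9 CPM at 16 cells, and in E at 164.04 CPM. The 10 AB libraries ranged from 0 to 154.8 CPM with a median of 83.01, and 7 of the 8 EMS-line libraries lay above all of them (log2 fold change 1.91 ± 0.56, SE, edgeR adjusted p = 0.0601). In the 20 P2-line libraries it ranged from 28.8 to 508 CPM, which covered most of the range of the EMS line. Row 16758 ranged from 0 to 537 CPM in the EMS line with a median of 100.4 and from 0 to 63.9 CPM in AB with a median of 20.1 (2.46 ± 0.83, SE, edgeR adjusted p = 0.11). Rows 12164 and 130 had the smallest p toward AB. Row 12164 ranged from 407 to 1188 CPM in the EMS line and from 289 to 4248 CPM in AB, and row 130 from 20.5 to 366 CPM in the EMS line and from 0 to 1870 CPM in AB. Neither was called (edgeR adjusted p = 0.418 for both), although DESeq2 gave row 12164 an adjusted p = 0.049, lower in the EMS line (0.049 to 0.986 over the alternatives).

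Against the P2 line, the sister line of EMS, the lean was small. Among the 32 rows tested 0 were called, where 0.201% of the 497 rows were called higher and 0% lower in the EMS line. At an unadjusted p under 0.05 were 5 of the 32, 4 of them higher in the EMS line, against 11.5% of all rows. The fold change was positive in 21 of 32, and the median of 0.19 lay 0.25 above that of all rows tested (-0.06). RLE size factors moved the median of all rows to -0.31 and that of the 32 to -0.08, a difference of 0.23. Members called higher in the EMS line were 3 of 100 without the filter (0.481% of all rows), 1 of 47 with a minimum total of 20000 counts (0.647%) and 2 of 71 without low-score libraries (0.417%). The mean level was 7.55 ± 0.18 in the EMS line (SD, n = 8), 7.46 ± 0.28 in the P2 line (SD, n = 20) and 7.30 ± 0.16 in AB (SD, n = 10), so the EMS and P2 lines overlapped widely. By stage the median of EMS minus P2 line was 0.23, 0.34 and 0.15 at 4, 5 and 6 cells, and -0.20 for MS and E minus P2 line at 13 cells. Low-score libraries were 10 of 20 in the P2 line.

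From the 4- to the 16-cell stage only the P2-line library titled D4 had a mean level in the range of 3-cell EMS. The next highest of that line was P4 at 13 cells, at 7.83, and a 2-cell AB library reached 8.01. The library titled D4 at 13 cells had a mean level of 8.07 and a share of 8.35% of its 34450 counts, and row 560 stood there at 1684 CPM. In the library titled P4D at 6 cells rows 16501 and 560 stood at 818 and 929 CPM, against 677 and 794 CPM in EMS and 28.9 and 0 CPM in AB of that stage. Over the 4- to 16-cell stages row 560 had a median of 130 CPM in the EMS line, 94.1 CPM in the P2 line and 33.4 CPM in AB. Row 16501 had medians of 164.8, 185.2 and 37.5 CPM in the EMS line, the P2 line and AB. Its groups overlapped, with 31.9 to 677 CPM in the EMS line, 0 to 818 CPM in the P2 line and 0 to 162.3 CPM in AB.

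By the rule for named rows, rows 1890 and 15798 had the smallest p toward the EMS line over the P2 line. Row 1890 ranged from 81.4 to 2365 CPM in the EMS line with a median of 445 and from 29.03 to 892 CPM in the P2 line with a median of 160.9 (log2 fold change 1.796 ± 0.51, SE, edgeR adjusted p = 0.0947). Its highest library was EMS of the 4-cell stage, and 2 of 8 EMS-line libraries lay above all of the P2 line. Without that EMS library its log2 fold change was 0.68, and its adjusted p ran from 0.0462 to 0.822 over the alternatives. Row 15798 ranged from 144.8 to 1218 CPM in the EMS line and from 127.1 to 491 CPM in the P2 line (1.05 ± 0.35, SE, edgeR adjusted p = 0.149), with a log2 fold change of 0.58 without the same EMS library. Toward the P2 line were rows 2635 and 10857 (edgeR adjusted p = 0.245 and 0.464). Row 2635 ranged from 46.7 to 389 CPM in the EMS line and from 37.5 to 3426 CPM in the P2 line, and row 10857 from 91.4 to 303 CPM in the EMS line and from 115.8 to 717 CPM in the P2 line.

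MS and E, the daughters of EMS, could be compared only through 3 MS libraries and 1 E library, whose spread was assumed to be that of the other cells of the 13- and 16-cell stages. On simulated counts edgeR made no right call in this comparison, so a lack of calls by edgeR here says nothing of whether rows differed. Of 73 rows tested 0 were called, as were 0% of 2061 rows in either direction (2.18% at an unadjusted p under 0.05; DESeq2 called 4 higher and 3 lower in MS). The log2 fold change of MS over E was positive in 34 of 73 rows, and its median was -0.09, where that of all rows tested was 1.35. Both medians rest on the 1 E library, and on simulated counts the fold changes were shifted toward MS. The gap between the medians can therefore not be read as a lean toward E. RLE size factors moved the median of all rows to 1.67 and left the rows 1.46 below it. Rows 14636 and 14954 had the smallest p toward E. Row 14636 stood at 731, 765 and 881 CPM in MS and at 9350 CPM in E, and row 14954 at 91.4, 197 and 225 CPM in MS and at 4484 CPM in E (edgeR adjusted p = 0.797 for both). The E library held 18288 counts and was a low-score one. In the other direction, row 4958 stood at 0, 1583 and 1700 CPM in MS and at 54.7 CPM in E, a single count. Row 16531 stood at 0, 290 and 410 CPM in MS and had no count in E, where 3 counts are 164.04 CPM. For both rows the MS library without a count was the shallower one of the 13-cell stage.

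At stages E2 to E8 the rows showed no common lean toward E. Their mean level was 7.55 ± 0.15 in E (SD, n = 7) and 7.61 ± 0.19 in AB (SD, n = 8). Of 18 rows tested 0 were called, as were 0% of 276 rows in either direction (5.43% at an unadjusted p under 0.05; 0 called by DESeq2, with 20 rows at an unadjusted p under 0.05). The fold change of E over AB was positive in 4 of 18 rows, and its median was -0.36, where that of all rows tested was -0.08. Without the filter 41 of the 100 rows were positive on the log2(CPM + 50) scale, against 48.8% of all rows. Low-score libraries were 3 of 7 in E and 4 of 8 in AB.

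Rows 14636 and 14954 again had the smallest p toward E. Row 14636 ranged from 511 to 6342 CPM in E with a median of 2973 and from 408 to 1796 CPM in AB with a median of 1049, and 5 of 7 E libraries were above every AB library (log2 fold change 1.43 ± 0.58, SE, edgeR adjusted p = 0.88). Row 14954 ranged from 383 to 5041 CPM in E with a median of 3151 and from 187.6 to 3697 CPM in AB with a median of 284 (1.61 ± 0.67, SE, edgeR adjusted p = 0.88). Without the E library of stage E2 the log2 fold changes were 0.94 for row 14636 and 1.06 for row 14954. Within E both rows were lowest in a library of stage E8. Neither was confined to E. In AB3 at 13 cells row 14636 stood at 7774 CPM and row 14954 at 3824 CPM, and in EMS of the 4-cell stage row 14954 stood at 3045 CPM. Over the libraries outside the 3-cell stage these rows had a Pearson r of 0.55. Rows 13149 and 11321 had the smallest p toward AB. Row 13149 averaged 304 ± 108.97 CPM in E and 575 ± 261 CPM in AB (edgeR adjusted p = 0.88). Row 11321 averaged 512 ± 282 CPM in E and 1442 ± 2305 CPM in AB (edgeR adjusted p = 0.995), where the library titled AB_ANT at stage E4 had 6928 CPM.

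**Figure D4:**
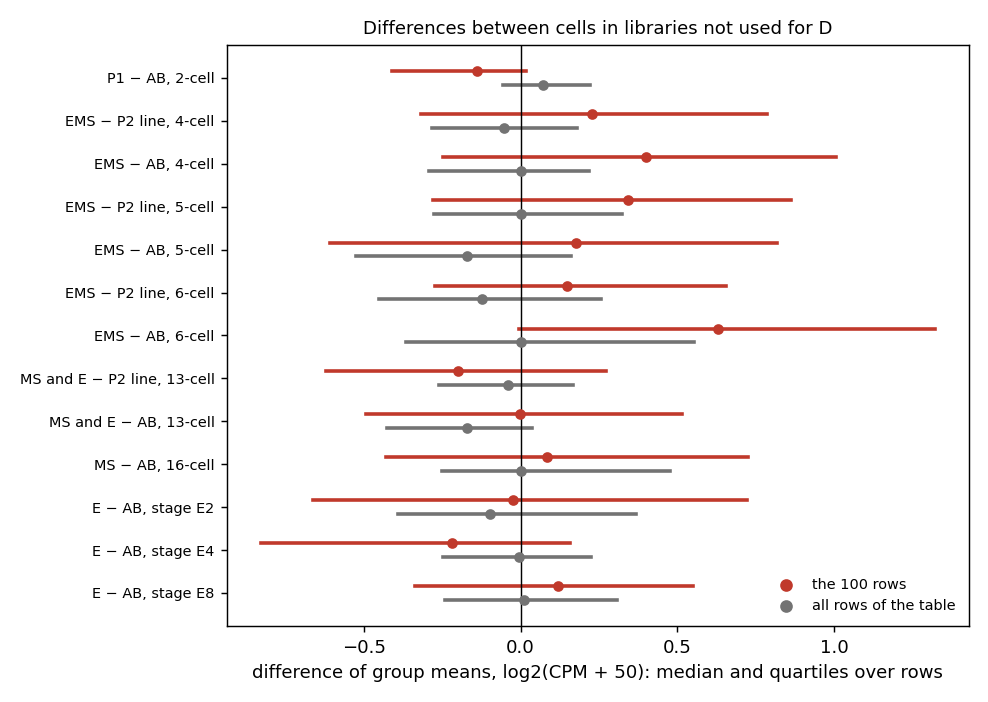
Median (point) and quartiles (line) over rows of the difference between group means in log2(CPM + 50) (horizontal axis) for comparisons outside the 3-cell stage (vertical axis), for the 100 rows (red) and all rows of the table (grey). The medians of the 100 rows are 0.40 and 0.63 for EMS minus AB at 4 and 6 cells and -0.14 for P1 minus AB at 2 cells.

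**Figure D5:**
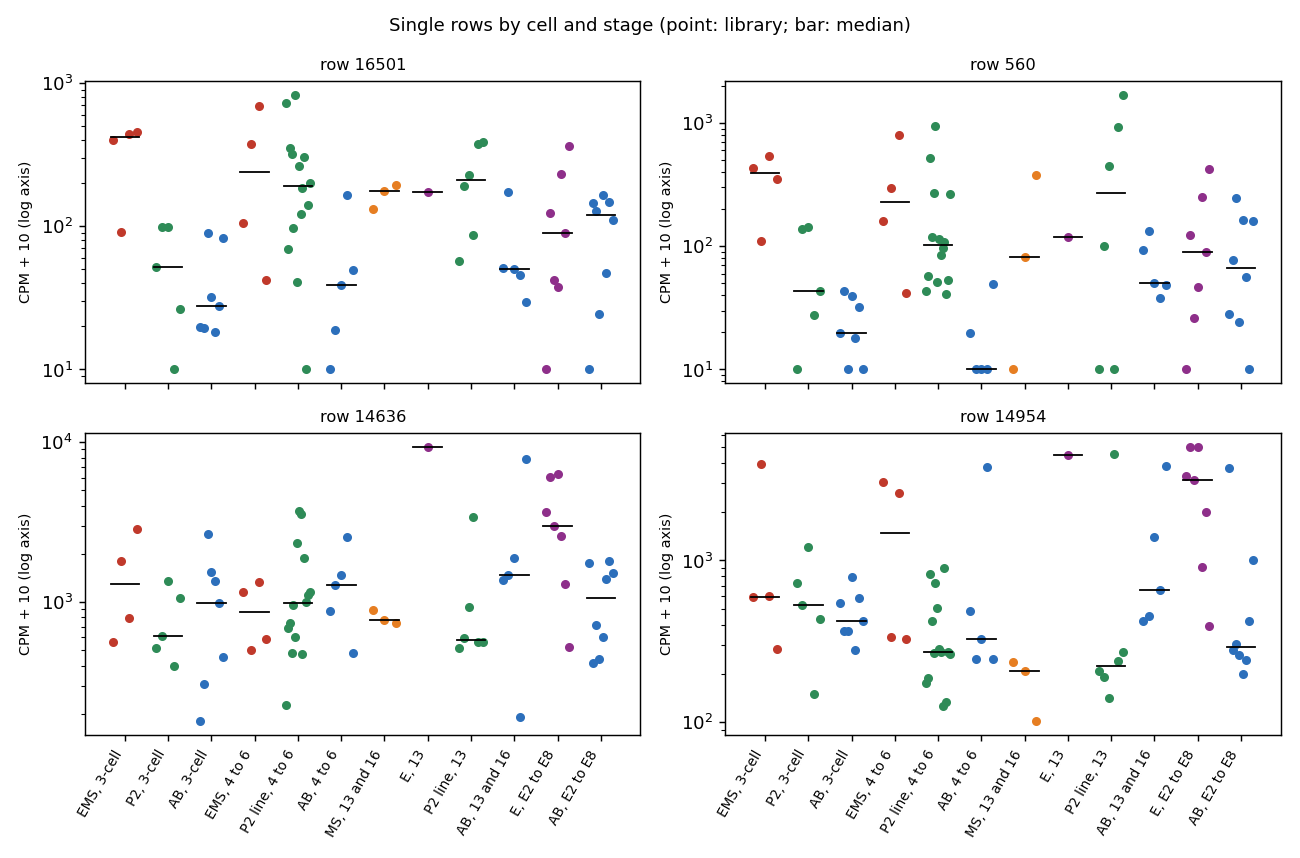
Level of rows 16501, 560, 14636 and 14954 as CPM + 10 on a log axis (vertical) in each library, by cell and stage (horizontal axis), with a bar at the median. The upper pair was at most 154.8 CPM in AB at 3 to 6 cells and higher in libraries of both the EMS and the P2 line. In E at stages E2 to E8 the median was 2973 CPM for row 14636 and 3151 CPM for row 14954. This lower pair also had high values in single libraries of every other kind of cell but MS.

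In the pieces of the late stages VE, Comma and LE, where most of the rows had their highest bin mean, no library is titled MS or EMS. The rows had a mean level of 7.74 ± 0.24 in the 32 libraries of those stages, against 7.46 ± 0.33 in the 45 of the 1- to 4-cell stages (SD). Row 16501 had a median of 210 CPM and row 560 of 220 CPM in the 28 late libraries titled with a piece.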

How the data were processed

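CEL-Seq2 libraries of A. nanus blastomeres and cell clusters were analysed from a table of counts deposited by the authors as whole numbers per row and library. The submitters' processing notes name Bowtie2 2.1.0 and HTSeq 0.5.4p3, and also CASAVA 1.8. Whether reads were collapsed by molecular identifier is not given in the sources used here, and the highest value in the table was 1024, at 22 values. The highest count of the 100 rows was 1023, with 4 values of 1000 or more. The deposited annotation was not used, since the files do not pair its entries with rows. Each column was assigned through the sample number in a description (0 unmatched). The members of the list, the groups and the tests were chosen with earlier results of these data known, and the 3-cell comparison itself has no test.

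Counts were tested with edgeR 4.0.16 (R 4.3.3, limma 3.58.1), using TMM, filterByExpr (minimum count 10, minimum total 15), the robust quasi-likelihood test and Benjamini-Hochberg adjustment over all rows tested, with a threshold of 0.05. Standard errors are those that give the test's F. The procedure was tested on simulated counts. It recovered only part of the changed rows in every comparison but that of MS with E, where it recovered none. For the EMS line against AB it missed most of them, so a lack of calls does not show that rows were alike. From each comparison the rule for named rows took the 2 listed rows with the smallest p in each direction, called or not, and from D the first 2 and those at ranks 100 and 101. The first component used 904 rows with 2000 or more counts. Replicate numbers were not taken as pairs. The closest replicates had a chi-square per degree of freedom of 3.34 (3638 rows), and no library was counted as a duplicate. Alternatives were other pseudocounts, scalings, filters and depth limits, DESeq2 1.42.0, a replicate block, and fits without low-score libraries or each library in turn. No reference sequence was used.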

Additional observations from a re-analysis of the deposited data

Results flagged for a closer look

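In 34 sets of values, each 1 measure in 1 group of 4 to 7 libraries, 5 values stood far from the others of their set. The sets overlap and include rows named from these same data, so their number cannot be set against a chance rate. The mean level of the 100 rows in 3-cell AB was highest in replicate 7, at 7.56, apart from the other 6 AB libraries. Row 16501 in 3-cell EMS was low in replicate 7, at 80.9 CPM. Row 5691 at the 2-cell stage was high in P1 replicate 6, at 333 CPM, and in AB replicate 4, at 7287 CPM. Row 11321 was high in the same AB replicate 4, at 9871 CPM.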

How the results depend on the processing

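The choice of rows depended on the processing. Of the 100 rows 6 were chosen again with a pseudocount of 10, 42 with 100, 27 with every library thinned to 10000 counts and 28 without low-score libraries. Shared rows were 68 with TMM-scaled totals, 74 with stage bins of named cells, 80 with a minimum total of 20000, 77 with D taken within replicate numbers, and 64 to 95 without 1 of the 3-cell libraries, 64 without EMS replicate 7. Members called for the EMS line against AB were 2 by DESeq2 (1 in each direction), and higher in the EMS line 2 without the filter (0.22% of all rows), 1 without low-score libraries (0.834%) and 0 to 3 without 1 library of the line, 3 without MS of the 16-cell stage (2.23%). Against the P2 line, members called higher were 3 without the filter (0.481%), 1 with a minimum total of 20000 (0.647%) and 2 without low-score libraries (0.417%), and 0 without any 1 library. The other comparisons called 0 members under every alternative run. The median of members minus that of all rows tested was 0.61 for the EMS line against AB without the filter and 0.28 without low-score libraries. For MS against E it was -1.05 by DESeq2 and -1.86 without the filter, and for E against AB -0.090 without the filter, -0.067 without low-score libraries and, turned round, 0.047 with a minimum total of 20000. Leaving out 1 library at a time, it ran from -0.67 to -0.25 for P1 against AB, from 0.93 to 1.11 for the EMS line against AB, from 0.15 to 0.36 against the P2 line, from -1.80 to -1.12 for MS against E and from -0.65 to -0.12 for E against AB. Single rows turned round as follows: row 5691 (P1 against AB) to 1.16 without low-score libraries and 0.14 without AB replicate 4, row 2635 (EMS line against P2 line) to 0.63 without low-score libraries, and row 11321 (E against AB) to 0.44 with a minimum total of 20000, 0.14 without low-score libraries and 0.038 without AB_ANT. Leaving out 1 library at a time, row 5691 ran from -3.73 to 0.14 and row 11321 (E against AB) from -1.67 to 0.038. Without low-score libraries 2 libraries of the EMS line were left. The cause of these changes was not tested. Same-numbered cells of the 2-cell stage deviated together with correlations from -0.00 to 0.64 (median 0.40, against -0.06 for other numbers), and those of the 3-cell stage with -0.39 to 0.53 (median 0.14, against 0.02). Not every pair exceeded 0.1, so the numbers were not taken as pairs. The replicate block brought the log2 fold change of row 5691 to -0.51 and of row 11321 to -0.94 (P1 against AB), and of row 1890 to 0.44 (EMS line against P2 line). It called 0 members in every comparison, 2 rows lower in P1 over all rows at the 2-cell stage, and gave a median of -0.00 for members in the EMS line against the P2 line, where RLE gave -0.08. MS against E had no value with a minimum total of 20000, without low-score libraries or without its E library. At the depths here, 46 to 82 of the 100 rows were too low to be tested in all comparisons but MS against E, where 27 were.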
